A study of Mus musculus with 11 samples.

Results

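The proteasome genes were followed over 11 mouse bead arrays of A375 xenografts, tumors of a human melanoma cell line with mutant BRAF grown under the skin of female CD1 athymic mice. Members were all probes whose gene symbol starts with Psma, Psmb, Psmc, Psmd or Psme, without Psmb8, Psmb9 and Psmb10, the catalytic subunits of the immunoproteasome. Of 75 such probes for 42 genes, 54 probes for 34 genes had a detection p-value under 0.05 on at least 1 array and were kept, out of 16217 detected probes with a single gene symbol (10933 genes). The rule by symbol also takes in Psmc3ip and Psme3ip1 (3 probes), which are named for an interaction with a proteasome protein and are not subunits, so that 51 probes of 32 genes stand for subunits, activators and assembly factors. All mice carried the same tumor cells, injected at 6 weeks of age, and the labels give 12 days for every array. The PLX4720 mice (3 arrays) received this inhibitor of mutant BRAF by mouth every day at 60 mg/kg, and the bevacizumab mice (3 arrays) received this antibody to VEGF-A by injection into the abdomen at 10 mg/kg, 3 times a week. The COMBO mice (2 arrays) received both drugs, and the vehicle mice (3 arrays) are labeled with methylcellulose, the carrier of PLX4720. Bevacizumab was diluted in saline, and the methods name vehicles in the plural for the control mice without saying which each mouse got. The host has no thymus and few T cells, and 1 tumor line stands for all tumors. Mouse probes are designed for the host tissue in and around the human tumor cells, where fewer cells of a type and less RNA per cell cannot be told apart, and binding of human RNA to these probes was not tested.

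The proteasome is the large protease that degrades proteins tagged with ubiquitin. Its 20S core is a barrel of stacked rings. The outer alpha rings (Psma genes) gate the entrance, and the inner beta rings (Psmb genes) hold the active sites. At each end sits a 19S regulator, with a ring of ATPases (Psmc genes) that unfolds the substrate and non-ATPase subunits (Psmd genes) that bind ubiquitin chains, cut them off and hold the lid together. The Psme genes encode activators that can take the place of the 19S regulator. In most cells the core is constitutive, while interferon and inflammation replace its catalytic beta subunits by those of the immunoproteasome. Muscle, blood vessels and macrophages all make proteasomes.

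The PLX4720 arrays had 13049 to 15130 detected probes and the remaining arrays 10115 to 12315, and between 44 and 52 of the 54 proteasome probes were detected on each array. Markers of other cells differed between the arrays, some by group and some on single arrays of a group. The mean log2 signal of skeletal muscle markers (16 of 18 genes had a detected probe) lay 7.60 above the vehicle mean in PLX4720 replicate 1, 3.94 above it in bevacizumab replicate 2 and 4.73 above it in COMBO replicate 1. It was also 2.35 above in PLX4720 replicate 3 and 1.16 above in COMBO replicate 2, while the vehicle arrays ran from -0.50 to 0.92. Within that vehicle range were PLX4720 replicate 2 (-0.44), bevacizumab replicate 1 (-0.29) and bevacizumab replicate 3 (-0.46). Endothelial markers (10 of 10 genes) lay between -1.51 and -0.81 from the vehicle mean on the PLX4720 arrays, between -0.88 and -0.51 with bevacizumab and between -1.92 and -1.56 with COMBO. Markers of macrophages and other leukocytes (9 of 10 genes) were 0.11 to 0.53 above the vehicle mean with PLX4720, 0.05 to 0.17 above it with bevacizumab and 0.91 to 1.12 above it with COMBO, while the vehicle arrays themselves ran from -0.25 to 0.30. Fibroblast markers (8 of 8 genes) ran from 0.03 to 1.67 with PLX4720, from -0.09 to 0.74 with bevacizumab and from -1.02 to -0.32 with COMBO, against -0.22 to 0.39 with vehicle, so both COMBO arrays were below every vehicle array. Adipoq, the only adipocyte marker of 4 with a detected probe, lay 0.69 to 4.49 above the vehicle mean with PLX4720, -0.77 to 3.99 with bevacizumab and 2.28 to 3.74 with COMBO, against -0.87 to 1.20 with vehicle. Erythroid markers (2 of 3 genes) ran from -1.76 to 0.94 with PLX4720, from -0.78 to 1.075 with bevacizumab and from -1.85 to -0.29 with COMBO, against -1.35 to 0.87 with vehicle. The part of the endothelial, leukocyte, fibroblast, adipocyte and erythroid markers in the results was not tested. For muscle, values are given without the 3 arrays with the most muscle signal (PLX4720 replicate 1, bevacizumab replicate 2 and COMBO replicate 1). This alternative was added after the data were seen and leaves COMBO replicate 2 as the only COMBO array.

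Few proteasome probes passed the test, and those that did were split between higher and lower. With PLX4720 against vehicle, 3 proteasome probes rose and 2 fell in limma (Benjamini-Hochberg adjusted p under 0.05 over all 16217 probes), where 4.82% of all probes rose and 6.76% fell. These 5 are 9.26% of the proteasome probes, against 11.6% of all probes. Without adjustment, p was under 0.05 for 16 higher and 6 lower proteasome probes (29.6% and 11.1% of them), beside 16.3% and 13.8% of all probes. The probes that rose were both probes of Psme1, the alpha subunit of the PA28 activator, and 1 of 2 probes of Psmb2, a non-catalytic subunit of the beta ring. The probes that fell were 1 of 4 probes of Psmb7, the catalytic subunit with trypsin-like activity, and 1 of 2 probes of Psmc5, an ATPase of the 19S base. With bevacizumab against vehicle, 0 proteasome probes and 0 of all probes passed in limma (0% in either direction), and without adjustment 1 was higher and 0 lower (3.08% and 3.74% of all probes). With COMBO against vehicle, 0 proteasome probes passed in limma, where 0.0555% of all probes rose and 0.185% fell, and without adjustment 4 were higher and 1 lower (6.9% and 6.04% of all probes). The threshold in the methods (absolute log2 fold change of 1 or more with an unadjusted p under 0.01) took 1 higher and 1 lower proteasome probe with PLX4720 (4.09% and 6.11% of all probes), and with COMBO 1 higher and 0 lower (1.81% and 1.84%). In the F test over the 4 groups, 3 proteasome probes passed at an adjusted p under 0.1 (Psmb7, Psmc5 and Psme1, 1 probe each), against a background of 9.13%. Without the 3 arrays with the most muscle signal, 0 proteasome probes rose and 0 fell with PLX4720 and 0 passed the F test, and of all probes 0.438% rose, 1.79% fell and 0.506% passed the F test. The fold changes of the 5 probes are given in that fit below, beside each gene.

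The middle of the group lay a little above vehicle with each treatment. The median log2 fold change of the 54 probes was 0.31 with PLX4720, 0.19 with bevacizumab and 0.25 with COMBO, beside medians of 0.15, 0.00 and 0.02 over all probes tested. Of the 54 probes, 36 had a fold change above 0 with PLX4720 (58.8% of all probes did), 38 with bevacizumab (50% of all) and 37 with COMBO (51.5% of all). Of the 54, 48 were detected on at least 1 array of both groups with PLX4720 and vehicle, and 32 of these 48 were above 0 (52.1% of all such probes) with a median of 0.31 (0.04 over all such probes). The median over the proteasome probes of the difference from the vehicle mean was 0.38, 0.18 and 0.21 on the PLX4720 arrays, 0.20, 0.15 and 0.22 on the bevacizumab arrays and 0.24 and 0.15 on the COMBO arrays, against 0.17, -0.05 and -0.05 on the vehicle arrays. Vehicle replicate 1 thus lay within the range of the treated arrays. The median log2 signal of the proteasome probes had a pooled SD of 0.24 between replicates. With housekeeping scaling the bevacizumab median was -0.00, and with median scaling, which moved the median of all probes from vehicle by 0.67, the PLX4720 median was 1.28 and 36 probes rose while 0 fell, in place of 3 and 2. Of all probes, 39.4% rose and 1.91% fell in that scaling. The counts of higher and lower probes were 1 and 2 with the authors' cubic spline values (4.56% and 6.47% of all probes), 4 and 4 with housekeeping scaling (4% and 14%) and 2 and 3 with cyclic loess (5.21% and 7.87%).

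**Figure D1:**
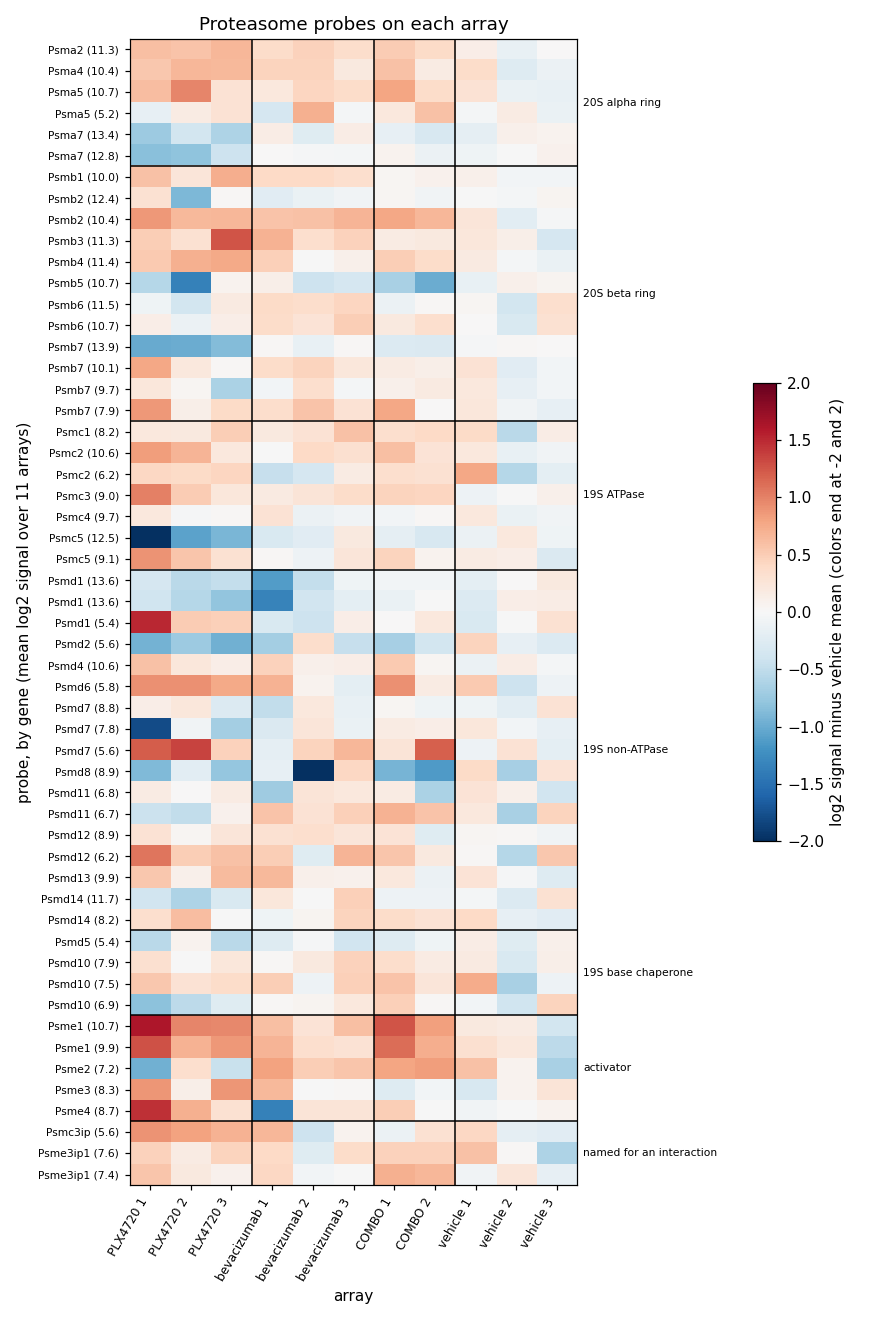
Difference of each proteasome probe from the mean of the vehicle arrays (log2, color scale) on each of the 11 arrays, with probes in rows by role and the probe's mean log2 signal in parentheses. The Psme1 rows are red on the PLX4720 and COMBO arrays. Of the probes with the largest mean signals, those of Psma7, Psmb7 (13.9), Psmc5 (12.5) and Psmd1 (13.6) are blue on the PLX4720 arrays. In the Psmb2 row at 12.4, replicate 2 is the only PLX4720 array below the vehicle mean.

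Proteasome genes are known to be raised together by Nfe2l1, a transcription factor that binds the antioxidant response element, and promoters are shown for 2 genes with a called probe and for 2 catalytic subunits that hold the core letters of that element. Of the 34 genes detected, 29 had a promoter in the RefSeq table used (GRCm38.p6). The 250 bases before the start were scanned on both strands for the core TGACNNNGC (GCNNNGTCA on the other strand) and, for a common promoter element, for CCAAT, which reads as ATTGG on the other strand. Neither motif contains the other. The core was found in 3 of the 29 genes (Psmb5, Psmb6 and Psmd12), or 10.3%, where 10.2% of 32851 promoters hold it. CCAAT was found in 11 of the 29, or 37.9%, where 33.8% of all promoters hold it. Each sequence below runs 5′ to 3′ on the gene's strand, and capitals mark the core. A match is only a match of letters. The promoters of Psme1 (chr14:55578244-55578493, plus strand) and Psmc5 (chr11:106255935-106256184, plus strand) hold neither motif in this window, and those of Psmb5 (chr14:54617996-54618245, minus strand) and Psmb6 (chr11:70525107-70525356, plus strand) hold the core once each.
Psme1: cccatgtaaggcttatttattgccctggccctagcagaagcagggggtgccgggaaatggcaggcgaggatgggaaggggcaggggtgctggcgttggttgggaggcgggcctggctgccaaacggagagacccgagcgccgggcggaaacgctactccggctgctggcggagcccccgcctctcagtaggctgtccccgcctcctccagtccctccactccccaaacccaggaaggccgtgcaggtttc
Psmc5: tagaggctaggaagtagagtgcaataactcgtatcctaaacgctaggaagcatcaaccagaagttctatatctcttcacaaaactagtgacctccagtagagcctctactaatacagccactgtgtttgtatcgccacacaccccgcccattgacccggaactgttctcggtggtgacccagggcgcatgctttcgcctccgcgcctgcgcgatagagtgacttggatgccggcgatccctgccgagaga
Psmb5: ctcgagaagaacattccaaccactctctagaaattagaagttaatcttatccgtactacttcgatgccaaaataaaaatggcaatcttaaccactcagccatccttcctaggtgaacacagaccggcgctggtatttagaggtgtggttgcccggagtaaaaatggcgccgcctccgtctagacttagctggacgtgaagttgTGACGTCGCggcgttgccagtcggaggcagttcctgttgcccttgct
Psmb6: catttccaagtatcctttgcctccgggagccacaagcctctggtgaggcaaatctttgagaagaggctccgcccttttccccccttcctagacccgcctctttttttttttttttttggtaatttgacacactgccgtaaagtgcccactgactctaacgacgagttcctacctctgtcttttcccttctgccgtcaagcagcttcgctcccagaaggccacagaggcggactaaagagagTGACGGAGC

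The alpha ring was represented by 6 probes of Psma2, Psma4, Psma5 and Psma7, and 0 of them passed in any comparison. Psma2, Psma4 and the brighter Psma5 probe were higher on every PLX4720 array than on every vehicle array, with log2 fold changes of 0.61, 0.62 and 0.63 (adjusted p = 0.066, 0.107 and 0.117 in limma). Psma2 had log2 signals of 11.51, 11.48 and 11.58 with PLX4720, 11.27, 11.37 and 11.27 with bevacizumab and 11.41 and 11.29 with COMBO, against 11.05, 10.76 and 10.92 with vehicle. Every treated array of Psma2 was thus above every vehicle array. The 2 Psma7 probes ran the other way with PLX4720. The probe ILMN_2630328 had 12.20, 12.23 and 12.62 with PLX4720, 13.04, 13.01 and 12.99 with bevacizumab and 13.11 and 12.92 with COMBO, against 12.95, 13.02 and 13.12 with vehicle. Only its PLX4720 arrays stood apart (log2 fold change -0.68 ± 0.21 SE, adjusted p = 0.055), and the other Psma7 probe had -0.58 ± 0.22 (adjusted p = 0.107). The dimmer Psma5 probe was detected on 1 bevacizumab array only. Psma1, Psma3, Psma6 and the testis form Psma8 had no detected probe.

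In the beta ring, 12 probes of Psmb1 to Psmb7 were detected, of which 1 rose and 1 fell with PLX4720. Psmb2 gave the higher one: its probe ILMN_2765890 had 10.81, 10.60 and 10.61 with PLX4720, 10.52, 10.53 and 10.63 with bevacizumab and 10.72 and 10.62 with COMBO, against 10.19, 9.74 and 9.92 with vehicle. All 8 treated arrays were above the 3 vehicle arrays. The log2 fold change was 0.725 ± 0.21 (SE) with PLX4720 (adjusted p = 0.045, limma), 0.61 ± 0.21 with bevacizumab (adjusted p = 0.639) and 0.72 ± 0.23 with COMBO (adjusted p = 0.221). The PLX4720 call was kept without vehicle replicate 1 or bevacizumab replicate 1 and lost without each of the other 9 arrays, with an adjusted p of up to 0.163 and a fold change of 0.62 without vehicle replicate 2. Without the 3 arrays with the most muscle signal it was 0.66 (adjusted p = 0.198). The brighter Psmb2 probe, ILMN_2949632, did not follow. It had 12.76, 11.56 and 12.49 with PLX4720, 12.23, 12.32 and 12.39 with bevacizumab and 12.51 and 12.38 with COMBO, against 12.45, 12.42 and 12.51 with vehicle. The PLX4720 arrays lay on both sides of the vehicle arrays (log2 fold change -0.19 ± 0.28, adjusted p = 0.671), and PLX4720 replicate 2 was the lowest of all.

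Of the catalytic subunits, 1 probe of Psmb7 passed and 0 probes of Psmb5 and Psmb6 did. Psmb5, which carries the chymotrypsin-like site, had 10.56, 9.76 and 11.19 with PLX4720, 11.24, 10.70 and 10.78 with bevacizumab and 10.47 and 10.13 with COMBO, against 10.97, 11.21 and 11.17 with vehicle. Both COMBO arrays were below the vehicle arrays, while PLX4720 replicate 3 was within their range. Its log2 fold change was -0.62 ± 0.33 (SE) with PLX4720 (adjusted p = 0.225), -0.21 ± 0.33 with bevacizumab (adjusted p = 0.958) and -0.82 ± 0.37 with COMBO (adjusted p = 0.375, limma), and the PLX4720 value was 0.31 with median scaling. It was -0.24 without PLX4720 replicate 2 and -0.96 without PLX4720 replicate 3. Psmb6, the subunit with the caspase-like site, had 2 probes. The brighter, ILMN_2777337, had 11.38, 11.11 and 11.65 with PLX4720, 11.86, 11.82 and 11.90 with bevacizumab and 11.36 and 11.50 with COMBO, against 11.51, 11.10 and 11.81 with vehicle. The bevacizumab arrays were the highest (log2 fold change 0.39 ± 0.24, adjusted p = 0.828), and PLX4720 and COMBO arrays lay within the vehicle range. The other probe, ILMN_2895862, had 10.62, 10.37 and 10.63 with PLX4720, 10.86, 10.76 and 10.99 with bevacizumab and 10.69 and 10.82 with COMBO, against 10.50, 10.19 and 10.79 with vehicle (0.05 ± 0.22 with PLX4720, adjusted p = 0.900). The promoters printed above for Psmb5 and Psmb6 thus belong to genes of which 0 probes passed.

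Psmb7 had 4 detected probes, of which the brightest fell. ILMN_1233153 had 13.18, 13.18 and 13.31 with PLX4720, 14.20, 14.03 and 14.20 with bevacizumab and 13.91 and 13.88 with COMBO, against 14.15, 14.21 and 14.18 with vehicle. The PLX4720 arrays were close to each other and apart from all other arrays, and the COMBO arrays lay between them and the vehicle arrays. The log2 fold change was -0.96 ± 0.19 (SE) with PLX4720 (adjusted p = 0.012, limma), -0.04 ± 0.19 with bevacizumab (adjusted p = 0.990) and -0.28 ± 0.22 with COMBO (adjusted p = 0.636). The PLX4720 call held without each array in turn except vehicle replicate 2 (-0.94, adjusted p = 0.056). It was lost with median scaling (-0.35, adjusted p = 0.265) and without the 3 arrays with the most muscle signal (-0.93, adjusted p = 0.083). The other 3 probes of the gene had PLX4720 fold changes of 0.34, -0.12 and 0.45 (adjusted p from 0.282 to 0.769). With 1 array left out these ran from 0.12 to 0.49, from -0.30 to 0.13 and from 0.25 to 0.63, and each was lowest without PLX4720 replicate 1. ILMN_1240550 had 10.71, 10.14 and 9.96 with PLX4720, 10.29, 10.38 and 10.15 with bevacizumab and 10.09 and 10.05 with COMBO, against 10.22, 9.70 and 9.88 with vehicle. ILMN_1221340 had 9.96, 9.76 and 9.10 with PLX4720, 9.67, 10.06 and 9.69 with bevacizumab and 9.82 and 9.91 with COMBO, against 9.95, 9.57 and 9.67 with vehicle. ILMN_2836147 had 8.43, 7.67 and 7.94 with PLX4720, 7.91, 8.13 and 7.84 with bevacizumab and 8.32 and 7.57 with COMBO, against 7.78, 7.49 and 7.40 with vehicle. In these 3 probes the PLX4720 arrays overlapped the vehicle arrays, so the probes of Psmb7 did not give 1 direction. The remaining beta subunits, Psmb1, Psmb3 and Psmb4, had 1 probe each, with PLX4720 fold changes of 0.52, 0.68 and 0.66 (adjusted p = 0.124, 0.126 and 0.071) and COMBO fold changes of 0.06, 0.18 and 0.43.

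**Figure D2:**
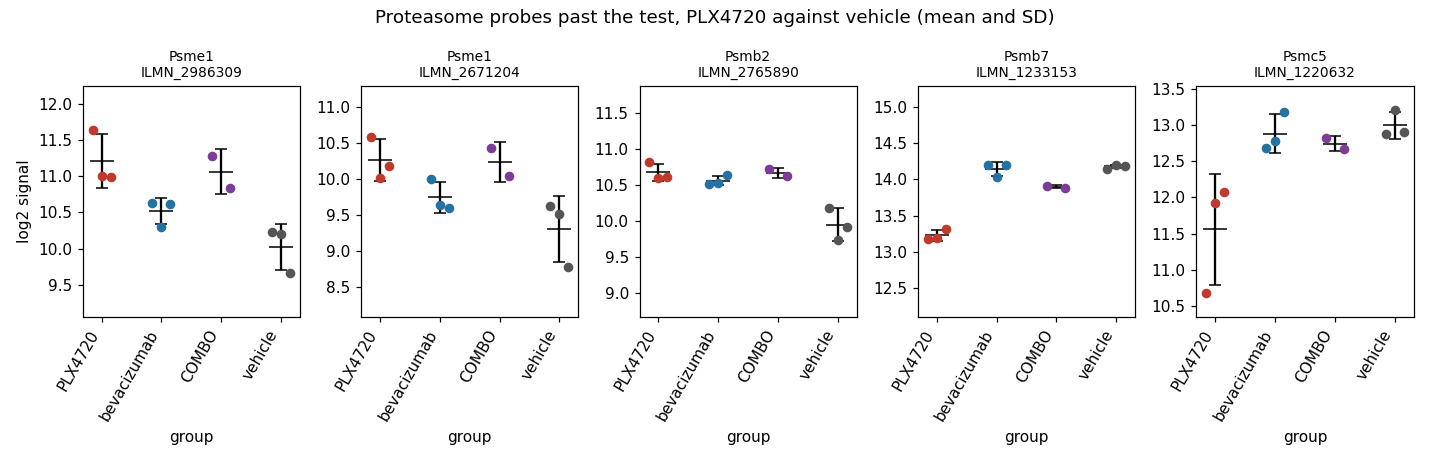
Log2 signal (neqc, own axis range in each panel) of the 5 probes past an adjusted p of 0.05 with PLX4720 against vehicle, as points for each array with the mean and SD of each group (n = 3, and n = 2 for COMBO). The PLX4720 points do not overlap the vehicle points in any panel, and the lowest Psmc5 point, 10.68, is PLX4720 replicate 1.

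Of the 19S ATPases, 7 probes of Psmc1 to Psmc5 were detected, 6 with a PLX4720 fold change above 0 and 1 that fell. The probe that fell, Psmc5 ILMN_1220632, had 10.68, 11.92 and 12.08 with PLX4720, 12.69, 12.78 and 13.19 with bevacizumab and 12.82 and 12.67 with COMBO, against 12.88, 13.21 and 12.91 with vehicle. PLX4720 replicate 1, the array with the most muscle signal, was the lowest by more than 1 on the log2 scale. The log2 fold change was -1.44 ± 0.34 (SE) with PLX4720 (adjusted p = 0.022, limma), -0.11 ± 0.34 with bevacizumab (adjusted p = 0.979) and -0.25 ± 0.38 with COMBO (adjusted p = 0.839). Without PLX4720 replicate 1 it was -0.998 and kept the call, and it lost the call without vehicle replicate 2 (-1.33, adjusted p = 0.090) or vehicle replicate 3 (-1.48, adjusted p = 0.058). Without the 3 arrays with the most muscle signal it was -0.998 (adjusted p = 0.096), and with median scaling -0.71 (adjusted p = 0.065). The other probe of the gene, ILMN_1251877, had 9.74, 9.40 and 9.15 with PLX4720, 8.86, 8.74 and 9.09 with bevacizumab and 9.29 and 8.92 with COMBO, against 9.003, 8.98 and 8.55 with vehicle. Here the PLX4720 arrays were above the vehicle arrays, the opposite of the brighter probe (0.59 ± 0.25, adjusted p = 0.132). Psmc1, Psmc2, Psmc3 and Psmc4, which stand beside Psmc5 in the ATPase ring, had PLX4720 fold changes from 0.07 (Psmc4) to 0.58 (Psmc3) and adjusted p of 0.123 or more. Psmc3 was higher on all PLX4720, bevacizumab and COMBO arrays than on the vehicle arrays. Psmc6, the other ATPase of the ring, had no detected probe.

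The non-ATPase subunits of the 19S regulator gave 17 probes of 10 genes, and 0 passed in any comparison. Of these, 14 were detected on at least 1 PLX4720 and 1 vehicle array, with PLX4720 fold changes from -0.85 (Psmd7 ILMN_1220284) to 0.86 (Psmd6, a lid subunit), 8 above 0 and 6 below. The other 3 were detected on arrays of only 1 of these groups. Psmd2, a scaffold of the base, was detected on 1 vehicle array and 0 PLX4720 arrays (log2 fold change -0.88, adjusted p = 0.077, limma). Psmd7 ILMN_1253915 was detected on 2 PLX4720 arrays and 0 vehicle arrays (1.00, adjusted p = 0.074, limma). For both, arrays without detection also enter the mean of the higher group, so no bound is given. Psmd1, the other large scaffold of the base, had 2 probes detected on all arrays, ILMN_2496534 and ILMN_2440046, with PLX4720 fold changes of -0.45 and -0.58. The bright probe ILMN_2440046 had 13.52, 13.34 and 13.13 with PLX4720, 12.57, 13.53 and 13.72 with bevacizumab and 13.78 and 13.90 with COMBO, against 13.64, 14.04 and 14.06 with vehicle. Bevacizumab replicate 1 was its lowest array, and its bevacizumab fold change of -0.64 ± 0.30 (adjusted p = 0.747, limma) was the second largest in size after Psmd8. The third Psmd1 probe, ILMN_2915861, was kept through the 3 PLX4720 arrays alone, was not detected on the other 8 arrays and was at least 1.12-fold higher with PLX4720 (adjusted p = 0.097, limma), which gives no direction for the gene. Psmd14, the deubiquitinase that cuts the ubiquitin chain off the substrate, had PLX4720 fold changes of -0.44 and 0.31 at its 2 probes, and Psmd4, a ubiquitin receptor, had 0.32 (adjusted p = 0.378).

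Single arrays stood apart at some of these probes. Psmd8, a lid subunit, had 8.70, 9.38 and 8.81 with PLX4720, 9.41, 5.60 and 9.99 with bevacizumab and 8.65 and 8.45 with COMBO, against 9.97, 8.92 and 9.86 with vehicle. Bevacizumab replicate 2 was not detected there, and its fold changes of -1.25 ± 0.85 (SE) with bevacizumab and -1.03 ± 0.95 with COMBO were the largest in size with bevacizumab and the second largest with COMBO, with the widest error of all (adjusted p = 0.855 and 0.707). The Psmd7 probe ILMN_1220284 had 6.18, 7.90 and 7.28 with PLX4720, 7.67, 8.21 and 7.84 with bevacizumab and 8.13 and 8.11 with COMBO, against 8.19, 7.92 and 7.80 with vehicle. PLX4720 replicate 1 was again the low array (-0.85 ± 0.36, adjusted p = 0.142), while the brighter probe of this lid gene, ILMN_2630438, had 0.03 ± 0.26. Psmd10 and Psmd5 are chaperones that help to build the 19S base. The 3 probes of Psmd10 had PLX4720 fold changes from -0.53 to 0.40 and COMBO fold changes from 0.25 to 0.40, and the Psmd5 probe was detected on 1 PLX4720 array only. Psmd3 and Psmd9 had no detected probe.

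The activators held both probes of Psme1. Psme1 ILMN_2986309 had 11.64, 11.001 and 10.99 with PLX4720, 10.63, 10.31 and 10.62 with bevacizumab and 11.29 and 10.85 with COMBO, against 10.22, 10.20 and 9.66 with vehicle. All PLX4720 and COMBO arrays lay above all bevacizumab arrays, and these above all vehicle arrays. The second probe, ILMN_2671204, had 10.59, 10.01 and 10.18 with PLX4720, 9.99, 9.64 and 9.60 with bevacizumab and 10.43 and 10.04 with COMBO, against 9.63, 9.52 and 8.79 with vehicle. Its PLX4720 and COMBO arrays were again above all vehicle arrays, and its bevacizumab arrays overlapped the vehicle arrays. The log2 fold changes were 1.19 ± 0.27 and 0.95 ± 0.28 (SE) with PLX4720 (adjusted p = 0.019 and 0.048, limma), 0.49 ± 0.27 and 0.43 ± 0.28 with bevacizumab (adjusted p = 0.782 and 0.840) and 1.04 ± 0.30 and 0.92 ± 0.31 with COMBO (adjusted p = 0.175 and 0.242). The call of the first probe was lost without vehicle replicate 2 (1.27, adjusted p = 0.056), vehicle replicate 3 (1.00, adjusted p = 0.071) or PLX4720 replicate 1 (0.97, adjusted p = 0.062). The call of the second was kept without PLX4720 replicate 2 or bevacizumab replicate 1 and lost without each of the other 9 arrays, with an adjusted p of up to 0.156 without vehicle replicate 3 (0.69). Without the 3 arrays with the most muscle signal the values were 0.97 and 0.79, and neither passed (adjusted p = 0.102 and 0.212). Leukocyte markers, at 0.11 to 0.53 with PLX4720 and 0.91 to 1.12 with COMBO against -0.25 to 0.30 with vehicle, moved with Psme1 in COMBO, and their part was not tested.

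Psme2, the beta subunit that forms PA28 together with Psme1, had 6.06, 7.35 and 6.56 with PLX4720, 7.82, 7.51 and 7.57 with bevacizumab and 7.80 and 7.84 with COMBO, against 7.60, 7.08 and 6.36 with vehicle. Its PLX4720 arrays overlapped the vehicle arrays (-0.36 ± 0.36, adjusted p = 0.514), and both COMBO arrays were above them (0.81 ± 0.40, adjusted p = 0.425). The PLX4720 value was -0.06 without PLX4720 replicate 1 and -0.705 without PLX4720 replicate 2, and the COMBO value was 0.48 without vehicle replicate 3 and 1.10 without vehicle replicate 1. Psme3, the nuclear PA28 gamma, had 9.0045, 8.23 and 8.99 with PLX4720, 8.77, 8.11 and 8.13 with bevacizumab and 7.86 and 8.06 with COMBO, against 7.79, 8.18 and 8.37 with vehicle. Its PLX4720 fold change was 0.63 ± 0.29 (adjusted p = 0.168) and its COMBO fold change -0.16 ± 0.32. Psme4, the PA200 activator, had 9.98, 9.22 and 8.82 with PLX4720, 7.16, 8.78 and 8.78 with bevacizumab and 9.002 and 8.51 with COMBO, against 8.44, 8.51 and 8.59 with vehicle. PLX4720 replicate 1 was its highest array and bevacizumab replicate 1 its lowest (0.83 ± 0.42 with PLX4720, adjusted p = 0.208). Without PLX4720 replicate 1 the PLX4720 value was 0.51.

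Arrays were also counted without a model. Of the 54 probes, 16 were higher on every PLX4720 array than on every vehicle array and 8 were lower (18.9% and 14.7% of all probes). Of the 16, 3 were detected on 0 vehicle arrays. Of the 48 probes detected on at least 1 array of both groups, 13 were higher and 7 lower, where 15.4% and 18.6% of all such probes separate in this way. The 13 included Psma2, Psma4, Psma5, Psmb1, Psmb2, Psmb3, Psmb4 and Psmc3 beside both Psme1 probes. With bevacizumab, 9 of the 54 were higher on every array and 1 was lower (6.43% and 7.06% of all probes), and all 10 were detected in both groups. With COMBO, 12 of the 54 were higher on both arrays and 5 were lower (20.3% and 17.9% of all probes), and of the 48 detected in both groups 11 were higher and 4 lower (21% and 19.6% of all such probes).

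The brightest proteasome probes differed in direction from the rest with PLX4720, in a grouping by mean log2 signal that was made after the values were seen. Below a signal of 7, 8 of 12 probes had a PLX4720 fold change above 0 (median 0.26, and 0.15 over all probes there), and from 7 to 9, 12 of 15 did (median 0.30, and 0.16 over all). From 9 to 11, 13 of 15 did, with a median of 0.52, while 57.9% of the 1361 probes at that signal did (median 0.14). From 11 to 12, 3 of 5 did (median 0.61, and -0.04 over all), so the median did not fall with signal below 12. Of 7 probes at 12 or above (1 or 2 probes each of Psma7, Psmb2, Psmb7, Psmc5 and Psmd1), 0 had one above 0, with a median of -0.58, while 39% of the 254 probes at that signal did (median -0.27). With median scaling 3 of these 7 were below 0, and in the other scalings all 7 were. With COMBO 0 of the 7 were above 0 as well, with a median of -0.07 beside -0.15 for all probes there, and with bevacizumab 1 of the 7 was above 0 (median -0.11 beside -0.04). With the authors' values 6 of the 7 were below 0 with COMBO and 5 with bevacizumab. Signals of different probes are not levels of RNA that can be set against each other, and these probes share their arrays. The direction below a signal of 7 also depends on the detection filter. There, Psmc3ip, Psmd1 ILMN_2915861 and Psmd7 ILMN_1253915 were above 0 with PLX4720 and were detected on 0 vehicle arrays. Psmd2, below 0, was detected on 0 PLX4720 arrays.

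**Figure D3:**
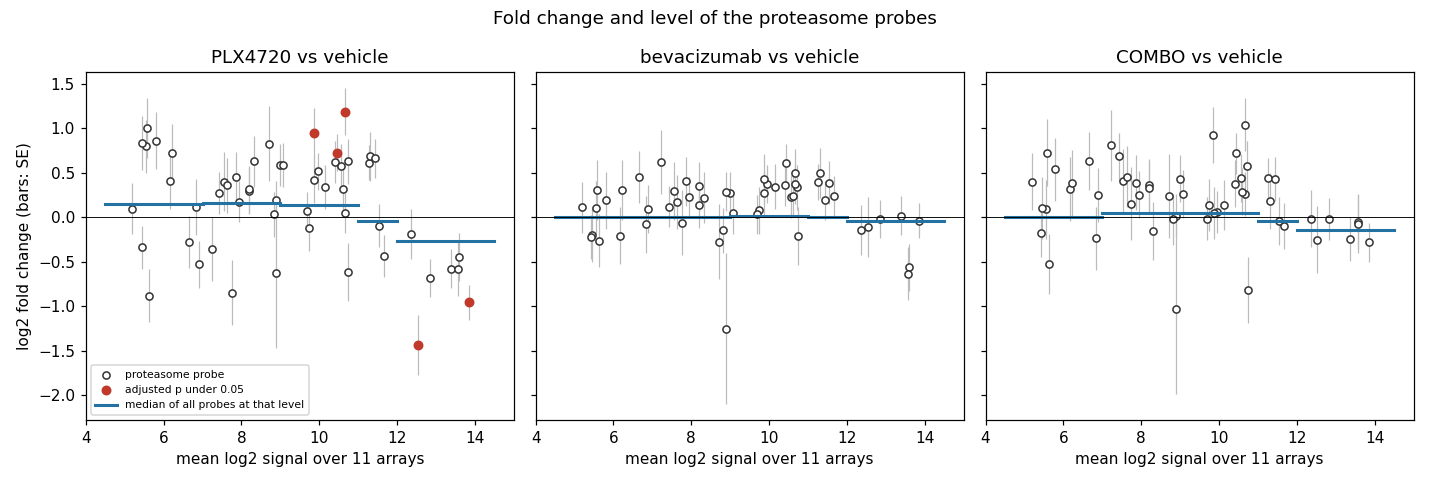
Log2 fold change with its SE against the mean log2 signal of each of the 54 proteasome probes, for PLX4720, bevacizumab and COMBO against vehicle; red points passed the adjusted p and blue lines are medians of all probes in that range of signal. With PLX4720 the 7 probes at a signal of 12 or above all lie under 0, and 13 of 15 between 9 and 11 lie above it.

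Probes of 1 gene could differ in sign. Of 14 proteasome genes with 2 or more probes detected on at least 1 PLX4720 and 1 vehicle array, 8 had PLX4720 fold changes of both signs (57.1%), where 45.7% of 2129 such genes among all probes did. In 4 of the 14 (28.6%; Psmb7, Psmc5, Psmd10 and Psmd14) a probe was more than 1 SE above 0 and another more than 1 SE below it, where 21.1% of all such genes did. In Psmb2, Psmb6, Psmd7 and Psmd11 the signs differed, but on 1 side or both by no more than 1 SE. The count of both signs was 3 of 14 with median scaling, 6 with cyclic loess and 8 in the other scalings. In 6 of the 14 the probe with the largest mean signal had the lowest fold change (42.9%, and 46% over all such genes). When 1 probe stood for each gene, the one with the largest mean, 1 proteasome gene rose with PLX4720 (Psme1) and 2 fell. Of all 10933 genes, 5.51% rose and 7.51% fell in that fit. A gene-level direction for Psmb2, Psmb7 or Psmc5 therefore depends on the probe taken, and only for Psme1 did 2 probes of the gene pass in 1 direction.

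**Figure D4:**
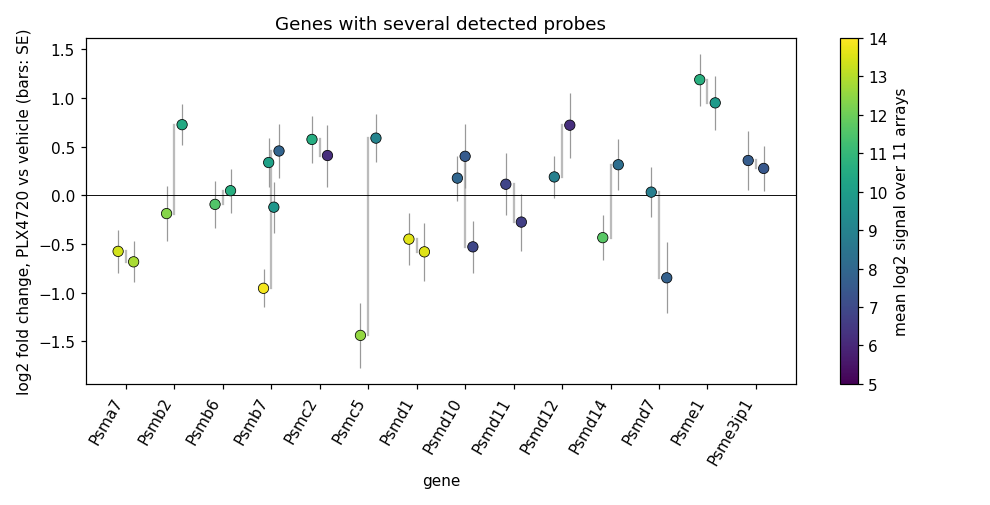
PLX4720 against vehicle log2 fold change (bars: SE) of each detected probe in the 14 proteasome genes with 2 or more such probes, colored by the probe's mean log2 signal; only probes detected on at least 1 PLX4720 and 1 vehicle array are drawn. The Psmc5 probes lie at -1.44 and 0.59 and the Psmb7 probes between -0.96 and 0.45, while both Psme1 probes lie above 0.9.

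Setting COMBO against each single agent asked what the second drug added. Against PLX4720, 0 proteasome probes passed in limma (0.00617% of all probes rose and 0% fell), and without adjustment 7 were higher and 1 lower (6.86% and 7.31% of all probes). At the threshold in the methods 1 was higher and 0 lower (2.19% and 1.62% of all probes). The largest differences were Psmc5 ILMN_1220632 (1.19 ± 0.38 SE, adjusted p = 0.197), Psme2 (1.17 ± 0.40, adjusted p = 0.219), Psmd7 ILMN_1220284 (1.00 ± 0.41, adjusted p = 0.292) and Psmd11 ILMN_1214057 (0.91 ± 0.33, adjusted p = 0.239), all higher with COMBO. The 2 Psme1 probes differed by -0.15 ± 0.30 and -0.03 ± 0.31 between COMBO and PLX4720. Against bevacizumab, 0 passed (0.00617% of all probes rose and 0.0308% fell), and 0 passed without adjustment in either direction (4.91% and 4.01% of all probes). The largest differences were Psmb5 (-0.61 ± 0.37, adjusted p = 0.700), Psme3ip1 ILMN_2688834 (0.56 ± 0.26, adjusted p = 0.558), Psmd1 ILMN_2440046 (0.56 ± 0.33, adjusted p = 0.695) and Psme1 ILMN_2986309 (0.55 ± 0.30, adjusted p = 0.656). The median over the 54 probes was -0.04 against PLX4720 and 0.09 against bevacizumab.

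The difference between COMBO and the sum of the single effects was tested as an interaction term, and 0 proteasome probes passed (0.00617% of all probes rose and 0% fell). Without adjustment 4 were above 0 and 3 below it (7.14% and 6.39% of all probes). The largest values were Psmc5 ILMN_1220632 (1.30 ± 0.51 SE), Psmd1 ILMN_2440046 (1.14 ± 0.45), Psmd7 ILMN_1220284 (1.06 ± 0.55) and Psme3 (-1.005 ± 0.43), with adjusted p from 0.294 to 0.428. PLX4720 against vehicle and COMBO against bevacizumab share no arrays, and 32 of the 54 probes (59.3%) had the same sign in both, where 60.6% of all probes did.

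In genes around the proteasome, the share of probes that passed with PLX4720 was near that of all probes (12.5%, against 11.6%). A list of 34 genes for assembly factors, regulators, ubiquitin shuttles and ubiquitin itself had 19 genes with 32 detected probes, of which 2 rose, 2 fell and 28 did not pass with PLX4720, and 0 passed with bevacizumab or COMBO. Their median fold change was 0.24 with PLX4720, 0.04 with bevacizumab and 0.14 with COMBO. Ubqln1 ILMN_2495573, a shuttle that carries ubiquitinated proteins to the proteasome, had 7.74, 7.74 and 7.84 with PLX4720, 9.10, 8.996 and 9.12 with bevacizumab and 9.02 and 9.15 with COMBO, against 9.06, 9.54 and 9.84 with vehicle. Its PLX4720 arrays were below all others (-1.71 ± 0.23 SE, adjusted p = 0.002, limma), and 2 of its other 3 probes had 0.22 and -0.61, while the third was not detected on vehicle arrays. Rad23b ILMN_2761120, another shuttle, fell by 1.05 (adjusted p = 0.037), with 3 other probes from -0.24 to 0.02. Ecpas ILMN_1249363, the adaptor known as Ecm29 in yeast, rose by 1.30 (adjusted p = 0.045), with another probe at -0.86, while its last probe was not detected on vehicle arrays. Ubqln4, another shuttle, was at least 1.74-fold higher with PLX4720, a bound because the vehicle arrays did not detect it (adjusted p = 0.024).

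Of the immunoproteasome subunits, left out of the members, only Psmb10 passed with PLX4720, as Psme1 did. Psmb10, which replaces Psmb7 in the immunoproteasome, rose with PLX4720 at both probes (1.40 ± 0.27 and 1.20 ± 0.31 SE, adjusted p = 0.011 and 0.030, limma) and had 1.27 ± 0.30 and 1.35 ± 0.34 with COMBO (adjusted p = 0.124 and 0.135). Its probe ILMN_2757870 had 10.50, 10.09 and 10.49 with PLX4720, 9.86, 9.66 and 9.92 with bevacizumab and 10.51 and 9.95 with COMBO, against 9.44, 8.86 and 8.58 with vehicle. Psmb9, which replaces Psmb6, had 7.27, 7.03 and 7.15 with PLX4720, 6.97, 6.68 and 7.28 with bevacizumab and 10.08 and 7.05 with COMBO, against 5.88, 5.87 and 6.06 with vehicle. All its treated arrays were above vehicle and COMBO replicate 1 was far above the rest (1.22 ± 0.55 with PLX4720, adjusted p = 0.161, and 2.63 ± 0.62 with COMBO, adjusted p = 0.115). Psmb8, which replaces Psmb5, had PLX4720 fold changes of -1.29 ± 0.92 and 0.34 ± 0.35 at its 2 probes, the first with a low array in PLX4720 replicate 1 (6.69).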

How the data were processed

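Total RNA of frozen tumors was amplified, biotin-labeled and hybridized to MouseWG-6 v2.0 bead arrays. Signal intensity without normalization, exported by the authors from GenomeStudio 2011.01, was the starting point, and their cubic spline normalized intensity served as an alternative. A probe was kept where its deposited detection p-value was under 0.05 on at least 1 array. The 11 arrays are labeled as replicates, and the methods call them biological triplicates, or duplicates for COMBO. Nothing more is given on how the tumors relate, so the p-values measure the spread between these arrays. The number of arrays limits the precision.

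Intensities were background-corrected and quantile-normalized with neqc (offset 16) in limma 3.58.1 (R 4.3.3; statmod 1.5.0 installed) and put on the log2 scale. All detected probes with 1 symbol were fitted together, 1 mean per group (7 residual and 5.01 prior degrees of freedom), and p-values were adjusted by Benjamini-Hochberg over 16217 probes. The methods keep 1 probe per gene, and here each probe is a feature because members are probes. All 75 member probes matched the RefSeq gene table by gene identifier, with 0 symbols changed. Deviations of same-numbered arrays correlated at -0.24 to 0.25 over 15 pairs, and those of other pairs at -0.35 to 0.42 over 30. The arrays were therefore not treated as paired. Deviations of the 2 COMBO arrays mirror each other, which limits this check. In simulated data with 100 probes changed by 1 and 100 by 2 (log2), the test recovered 11% and 91% for PLX4720 (raised) and 2% and 74% for COMBO (lowered), with 9 and 1 false calls.

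The members, lists and tests were chosen with earlier results of these data known. Named with all arrays were member probes past the test, the catalytic subunits, the activators and all probes of a gene with a called probe. Where 0 passed, the 4 largest changes were named. Psma2, Psma7, other members outside this rule and the promoters were chosen after their values were seen. Alternatives were other normalizations, filters, probe choices, samples, weights, moderation, thresholds, a muscle covariate and leaving out arrays. The sets of probes detected in both groups were formed after the values were seen. Probe and protein sequences were not used here.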

Additional observations from a re-analysis of the deposited data

How the results depend on the processing

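The median against vehicle was above 0 for each treatment in every alternative tried, except for bevacizumab with housekeeping scaling (-0.00), while the PLX4720 counts moved often. With PLX4720 against vehicle, higher and lower probes numbered 36 and 0 with median scaling (median 1.28), 6 and 4 without background correction, 0 and 1 with the groups compared alone, 1 and 1 at the methods' threshold, 0 and 1 with the muscle covariate and 0 and 0 without the 3 arrays with the most muscle signal (chosen after seeing the data). Of all probes, 39.4% rose and 1.91% fell with median scaling, 3.8% and 5.85% without background correction, and 1.51% and 3.23% with the groups compared alone. The shares were 4.09% and 6.11% at the methods' threshold and 1.15% and 3.39% with the muscle covariate. Higher proteasome probes numbered 1 with the authors' values (4.56% of all probes), array weights (2.82%) or 1 probe per gene (5.51%). They numbered 5 without a detection filter (1.66% of 34885 probes), a setting with 75 member probes in place of 54. Lower ones numbered 4 with housekeeping scaling (14%). The F test called 35 with median scaling, 9 without background correction, 6 without a detection filter and 0 with the muscle covariate or without those 3 arrays. Of all probes, the F test called 42.3% with median scaling, 8.18% without background correction, 3.29% without a detection filter and 3.87% with the muscle covariate. COMBO against vehicle gave 1 higher with array weights (1.55% of all probes) or the methods' threshold (1.81%). COMBO against PLX4720 gave 1 higher without background correction (0.136%) or at the methods' threshold (2.19%). It gave 6 lower with median scaling (12.2% of all probes), with a median of -0.77, and -1.004 for the interaction. The cause was not tested.

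Leaving out 1 array at a time gave 0 to 3 higher and 0 to 3 lower probes with PLX4720 (0 and 0 without vehicle replicate 2; 0 higher also without vehicle replicate 3 or PLX4720 replicate 1, and 1 higher without bevacizumab replicate 2 or 3 or either COMBO array), 0 to 5 in the F test, and medians of 0.19 to 0.37 with PLX4720, 0.09 to 0.25 with bevacizumab and 0.10 to 0.27 with COMBO. Of all probes, 0.66% to 5.24% rose and 2.13% to 6.99% fell with PLX4720 when 1 array was left out, and 3.12% to 10.8% passed the F test. Among single probes with PLX4720, median scaling turned Psmb5 to 0.31, Psmb6 ILMN_2777337 to 0.75, Psmb7 ILMN_1221340 to 0.89 and Psme2 to 0.485, and cyclic loess turned Psmb6 ILMN_2895862 to -0.0635. With 1 array left out, the PLX4720 fold change ran from -0.279 to 0.0739 for Psmb6 ILMN_2777337, from -0.107 to 0.197 for Psmb6 ILMN_2895862 and from -0.297 to 0.131 for Psmb7 ILMN_1221340. With COMBO, Psmb6 ILMN_2777337 turned to 0.0415 (median scaling), 0.0625 (replicate block) and 0.0249 (without the 3 arrays with the most muscle signal) and ran from -0.230 to 0.123 with 1 array left out. Psme3 turned to 0.14 with COMBO under median scaling, and Psme4 to -0.13 with the muscle covariate and -0.0021 without those 3 arrays. The last value rests on COMBO replicate 2 alone and equals that without COMBO replicate 1. With 1 array left out, Psme4 ran from -0.0021 to 0.4875 with COMBO. The muscle covariate turned Psmb7 ILMN_1240550 to -0.0230 and Psmc5 ILMN_1220632 to 0.0560 with COMBO. None of these turned values passed, apart from Psmb6 ILMN_2777337 with PLX4720 under median scaling.

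The correlations between arrays gave no sign of pairing by replicate number. With the replicate block, 2 probes rose and 2 fell with PLX4720 (3.71% and 5.99% of all probes), and the Psmb2 call was lost. Medians were then 0.31 with PLX4720, 0.19 with bevacizumab and 0.22 with COMBO. In the simulated data, most changes of 1 on the log2 scale were not called. With PLX4720, 1878 of all probes passed, far more than were changed in the simulation. Its recovery therefore need not hold for that comparison.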
